A study of Mus musculus with 9 samples.

Results

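Adrenergic and muscarinic receptors set the rate and force of the heartbeat. The genes described here encode receptors of this kind, the G proteins and adenylyl cyclases behind them, and a kinase that switches the receptors off. Beta-adrenergic receptors act through the stimulatory G protein Gs on adenylyl cyclase, which makes cyclic AMP, and cyclic AMP activates protein kinase A. The M2 muscarinic receptor acts through inhibitory G proteins of the Gi family and opposes this arm, and alpha-1 adrenergic receptors act through Gq on phospholipase C. Members were the genes of a list of 9 whose symbol annotates a row of the deposited value table, with the brightest row taken per gene. Of the 9, 7 had a row, 1 each (Adra1b, Chrm2, Gnas, Gnai2, Adcy5, Adcy6 and Grk5), among 19505 genes in all. Adrb1 and Adra1a were not analysed here.

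RNA came from the peri-infarct region, the border of the scar, of 9 mouse hearts 4 weeks after ligation of the left anterior descending coronary artery. All mice were female SCID animals of 80 to 100 days, which lack functional T and B lymphocytes, and all had an infarct. In 3 hearts each, the injection held exosomes precipitated from cardiomyocytes that had been differentiated from induced pluripotent stem cells (iCM-Ex), such cardiomyocytes themselves (iCM), or saline. The infarct core and the remote zone were removed, each heart was read on its own Clariom S array, and no uninjured heart is among the samples, so every comparison is between infarcted hearts. No source used here gives the species or donor of the stem cells.

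Values are the authors' log2 signals, so a difference of 1 is a doubling of signal, and a level is given as mean ± SD of 3 arrays. The mean of 11 cardiomyocyte markers was 16.09 to 17.92 on the arrays, and all 11 lay above the median negative control on each. Some arrays stood apart. Averaged over 7 lung markers, the signal reached 9.41 on the third iCM-Ex array and 12.97 on the first iCM array (replicates 3 and 1), against 4.21 to 6.14 elsewhere, and 7 skeletal muscle markers averaged 13.46 and 5 fat markers 8.83 in iCM replicate 2, against at most 6.08 and 5.38 elsewhere. Pearson r across genes, which are not independent, was 0.943 to 0.981 for pairs within a group. In tissue samples such as these, fewer cells of a type and less RNA per cell cannot be told apart.

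The promoter of Chrm2 is shown because Chrm2 was the member that passed the test. It is the RefSeq window from 250 bases before to 50 bases after the annotated start, on GRCm38.p6, plus strand, chr6:36387834-36388133, written 5′ to 3′ with the 1 match to a searched motif in capitals.
Chrm2: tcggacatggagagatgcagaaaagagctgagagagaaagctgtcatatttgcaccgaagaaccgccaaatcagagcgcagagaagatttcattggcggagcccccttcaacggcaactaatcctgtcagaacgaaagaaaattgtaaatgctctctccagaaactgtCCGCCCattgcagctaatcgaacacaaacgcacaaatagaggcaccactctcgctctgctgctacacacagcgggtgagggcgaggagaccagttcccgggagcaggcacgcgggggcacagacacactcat

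Both strands were searched. The core of the cyclic AMP response element was spelled TGACGT. Its shorter form, also counted wherever the core occurs, was spelled TGACG. The GC box was spelled GGGCGG, which reads as the capitals above on the opposite strand. A site for GATA factors was spelled AGATAA. The TATA box was spelled TATAAA. The match in Chrm2 is a GC box on the minus strand, 82 bases before the start. Of the 32851 promoter windows in the table, 35.7% hold a GC box, 20.8% the shorter form, 13.6% the TATA box, 11.2% the GATA site and 7.51% the core. The table holds 9 windows of 5 members, of which 5 hold a GC box, 3 the TATA box, 3 the shorter form and 0 the core or the GATA site. The matches to the shorter form and to the TATA box all lie in windows of Gnas, a locus with several alternative first exons. A pair of these windows overlap in nearly all bases, so the same TATA box and the same match to the shorter form are counted in both. GC content was 52.7% in the Chrm2 window and 79.0% in that of Adcy5.

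Chrm2, which encodes the M2 receptor, the muscarinic receptor through which the vagus nerve slows the heart, fell in iCM hearts. The 3 iCM arrays read 4.96, 5.10 and 7.33, and the 3 saline arrays read 8.27, 8.51 and 7.71. All iCM arrays lay below all saline arrays, 2 of them far below and iCM replicate 3 just below. The means were 5.80 ± 1.33 in iCM and 8.16 ± 0.41 in saline (SD, n = 3 each), a difference of −2.37 ± 0.56 (SE) with a 95% interval of −3.61 to −1.12 (limma adjusted p = 0.0479). In the same contrast 3.67% of all genes were past the threshold, an adjusted p of 0.05 (1.34% higher and 2.33% lower in iCM), beside this 1 of 7 members. Groups were free of overlap in 24% of all genes (13.8% higher and 10.2% lower in iCM) and in 2 of 7 members, both lower.

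In iCM replicates 1 and 2 the Chrm2 signal lay 0.15 and 0.46 below the array's median negative control, so the size of the fall is uncertain. These are the arrays with high lung and with high muscle and fat markers. With both and iCM-Ex replicate 3 left out, so that 1 iCM array remained and was assumed to vary like the others, the difference was −0.83 (limma adjusted p = 0.524). Leaving out any 1 of the 9 arrays other than iCM replicate 3 ended the call, with limma adjusted p from 0.0583 to 0.158, highest without iCM replicate 2. The iCM-Ex arrays enter this contrast through the shared estimate of the spread, not the difference. Without any 1 of them the difference stayed at −2.37, with limma adjusted p of 0.0583, 0.0753 and 0.0772. Without iCM replicate 3 the difference was −3.13 (limma adjusted p = 0.00876). With the cardiomyocyte marker mean as a covariate it was −2.34 ± 0.35 (limma adjusted p = 0.00952). With control separation (median positive minus median negative control) as a covariate it was −1.93 ± 0.76 (limma adjusted p = 0.369). Control separation was lower on every iCM array than on every saline array.

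In iCM-Ex hearts Chrm2 was at 6.30, 6.74 and 6.86, a mean of 6.63 ± 0.30. These arrays also lay below every saline array, at values between the low and the high iCM arrays. The difference from saline was −1.53 ± 0.56, with an interval of −2.78 to −0.28, and did not pass the test (limma adjusted p = 0.231). Of all genes, 0.349% were past the threshold (0.22% higher and 0.128% lower in iCM-Ex), against 0 of 7 members, of which 2 had an unadjusted p under 0.05. In 21.7% of all genes (12.2% higher and 9.53% lower in iCM-Ex) the groups were free of overlap, against 1 of 7 members. The 2 contrasts share the saline arrays. Between the injections the difference was 0.84 ± 0.56 (iCM-Ex minus iCM, interval −0.41 to 2.08, limma adjusted p = 0.567), and it was −0.81 without the 3 arrays that stood apart.

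**Figure D1:**
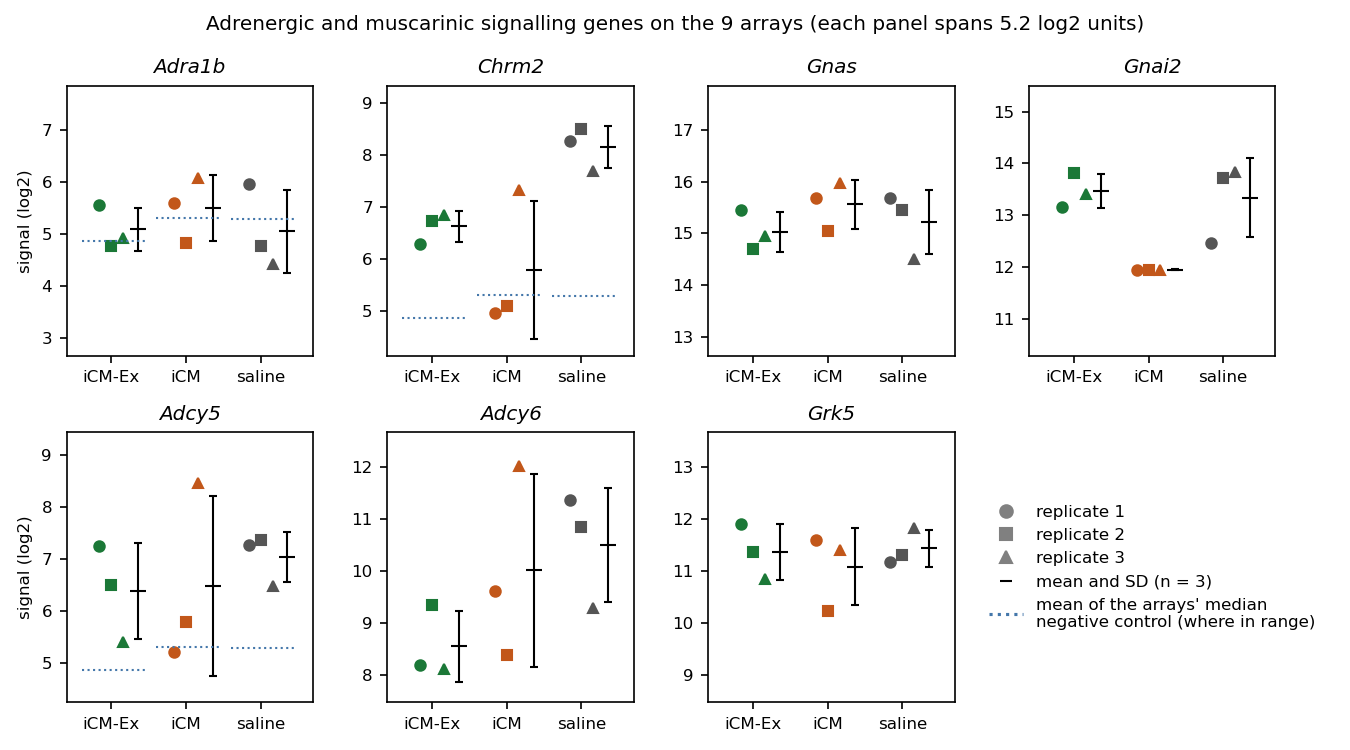
Log2 signal (vertical axis) of each of the 7 members on the 9 arrays, with symbols for replicates, black bars for mean and SD of 3 arrays, and dotted lines for the mean of the arrays' median negative controls. Chrm2 lies lower on all iCM-Ex and iCM arrays than on the saline arrays, and the 3 iCM arrays coincide for Gnai2.

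The genes most like Chrm2 over the 9 arrays were Got1, which encodes the cytosolic aspartate aminotransferase, Pak3, a p21-activated kinase, and Clip4, with Pearson r = 0.975, 0.973 and 0.970. With each group's mean taken out, r was 0.924, 0.937 and 0.905. In all, 70 genes had r over 0.9, and the 9 arrays share the group structure on which these values rest.

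Adra1b encodes the alpha-1B receptor, a Gq-coupled receptor for noradrenaline. Its signal was 5.56, 4.78 and 4.93 in iCM-Ex, 5.60, 4.83 and 6.08 in iCM, and 5.96, 4.78 and 4.42 in saline. The 3 groups overlapped, and 5 of the 9 arrays read above their median negative control, so the gene was near background throughout. The difference from saline was 0.04 ± 0.46 in iCM-Ex and 0.45 ± 0.46 in iCM, with intervals of −0.98 to 1.06 and −0.57 to 1.47 (limma adjusted p = 0.979 and 0.625).

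Gnai2 encodes an inhibitory G protein alpha subunit that couples to the M2 receptor in heart and to chemokine receptors in leukocytes. Its signal was 13.16, 13.82 and 13.41 in iCM-Ex, 11.96, 11.96 and 11.95 in iCM, and 12.47, 13.72 and 13.84 in saline. All iCM arrays lay below all arrays of the other groups, which overlapped. The difference was 1.51 ± 0.37 between iCM-Ex and iCM, with an interval of 0.68 to 2.34 (limma adjusted p = 0.0883), and −1.39 ± 0.37 between iCM and saline, with an interval of −2.22 to −0.56 (limma adjusted p = 0.0691). Neither passed the test. Between iCM-Ex and iCM 1.07% of all genes were past the threshold (0.795% higher and 0.272% lower in iCM-Ex), against 0 of 7 members, of which Gnai2 alone had an unadjusted p under 0.05. The groups were free of overlap in 20.2% of all genes (10.2% higher and 10% lower in iCM-Ex), against this 1 of 7.

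Saline replicate 1 weighed on both Gnai2 tests. Without it the difference was −1.82 for iCM minus saline (limma adjusted p = 0.0227). For iCM-Ex minus iCM that array enters through the shared estimate of the spread, not the difference. Without it that difference stayed at 1.51, with a limma adjusted p of 0.0355. Between iCM-Ex and saline the Gnai2 difference was 0.12 ± 0.37, with an interval of −0.71 to 0.95. The 3 iCM values span 0.011, and 0.0359% of all genes had a smaller SD over those arrays. Replicates 1 and 2 carry the same value, as in 18 genes. The mean of 5 macrophage markers was 12.69 to 12.78 in iCM-Ex, 9.47 to 11.02 in iCM and 9.36 to 12.75 in saline. Within saline it was lowest in replicate 1, the array with the lowest Gnai2 signal of that group. Saline replicate 2 and iCM replicate 1 had macrophage means of 10.95 and 11.02, and Gnai2 signals of 13.72 and 11.96. The part of the macrophage mean in the Gnai2 values was not tested.

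Gnas encodes the alpha subunit of Gs, along with other products of the same imprinted locus. Its row is annotated to 9 transcripts, so these products cannot be told apart. The signal was 15.46, 14.70 and 14.95 in iCM-Ex, 15.69, 15.05 and 15.96 in iCM, and 15.68, 15.46 and 14.52 in saline. The groups overlapped in each comparison. The difference from saline was −0.18 ± 0.39 in iCM-Ex and 0.35 ± 0.39 in iCM, with intervals of −1.04 to 0.68 and −0.51 to 1.21 (limma adjusted p = 0.867 and 0.660).

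Within an array, the log2 signal of Gnai2 minus that of Gnas was −1.57 ± 0.71 in iCM-Ex, −3.61 ± 0.48 in iCM and −1.88 ± 1.27 in saline (SD, n = 3 each). It is an offset between 2 probe sets, whose zero has no meaning, and is given for its change between groups. It was −3.73, −3.09 and −4.02 in iCM, against −3.20, −1.74 and −0.68 in saline, so that these groups overlapped, while the iCM-Ex arrays, at −2.30, −0.88 and −1.54, lay above every iCM array.

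**Figure D2:**
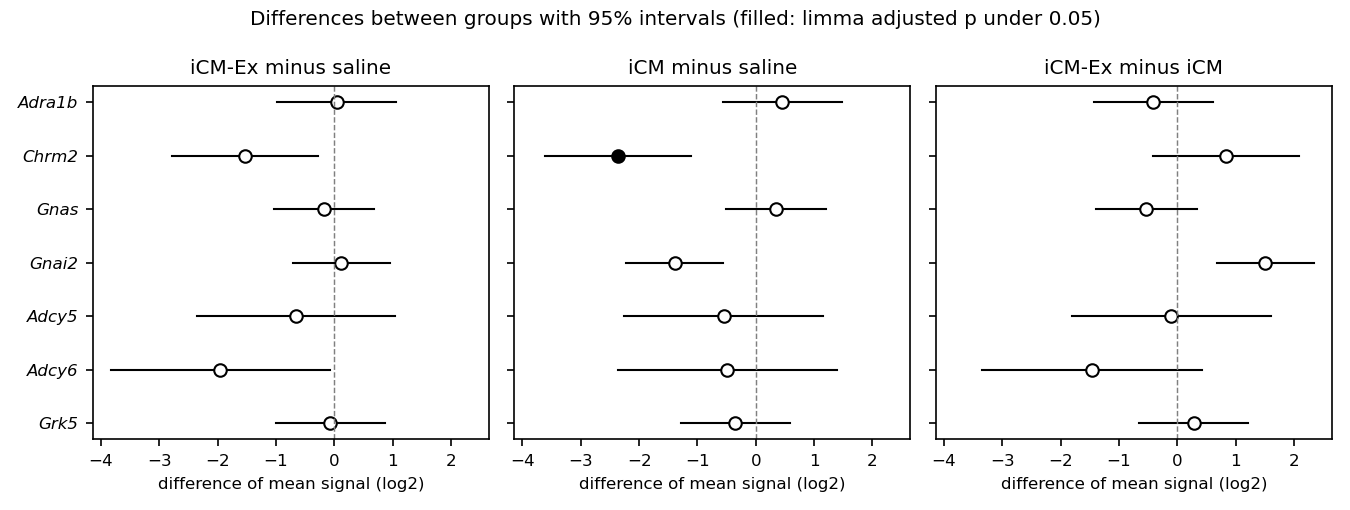
Difference of mean log2 signal (horizontal axis) for the 7 members in the 3 contrasts, with 95% intervals from the limma fit over all genes. The filled point is Chrm2 in iCM minus saline, at −2.37, and the open points did not pass the test.

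Adcy5 and Adcy6 encode the main adenylyl cyclases of cardiomyocytes, both inhibited by Gi and by calcium. The Adcy6 signal was 8.18, 9.34 and 8.11 in iCM-Ex, 9.61, 8.38 and 12.02 in iCM, and 11.37, 10.84 and 9.27 in saline. The iCM-Ex arrays were low and overlapped saline by 1 array, and the iCM arrays held both the highest value of the 9 and a low one. The difference from saline was −1.95 ± 0.85 in iCM-Ex, with an interval of −3.83 to −0.08 (limma adjusted p = 0.307), and −0.49 ± 0.85 in iCM (limma adjusted p = 0.792).

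The Adcy5 signal was 7.24, 6.50 and 5.40 in iCM-Ex, 5.21, 5.78 and 8.46 in iCM, and 7.27, 7.36 and 6.48 in saline. The groups overlapped in each comparison, with iCM replicate 3 again the highest of the 9. The difference from saline was −0.65 ± 0.77 in iCM-Ex and −0.55 ± 0.77 in iCM, with intervals of −2.35 to 1.05 and −2.25 to 1.15 (limma adjusted p = 0.747 and 0.733). Without the 3 arrays that stood apart, the iCM difference turned to 1.43 for Adcy5 and to 1.52 for Adcy6.

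Both cyclases varied more within groups than most genes. The pooled SD within groups was 1.30 for Adcy6 and 1.17 for Adcy5, above those of 98.1% and 97.2% of all genes, against 0.48 for Gnai2. The array with the highest cardiomyocyte marker mean, iCM replicate 3 at 17.92, was the highest for both. The next arrays by that mean, saline replicates 1 and 2 at 17.25 and 17.11, were the next for Adcy6. With the marker mean as a covariate the Adcy6 difference was −1.03 ± 0.35 in iCM-Ex and −0.44 ± 0.32 in iCM, both against saline (limma adjusted p = 0.255 and 0.481). The 11 markers did not move together between iCM-Ex and saline. There, 4 were higher, such as Tnni3 by 1.17, and 7 lower, such as Ryr2 at −2.61, with 0 past the threshold. Their mean is thus not a clean measure of cardiomyocyte content. The signal of Adcy5 minus that of Adcy6 within an array was −2.16 ± 1.06 in iCM-Ex, −3.52 ± 0.90 in iCM and −3.46 ± 0.65 in saline.

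**Figure D3:**
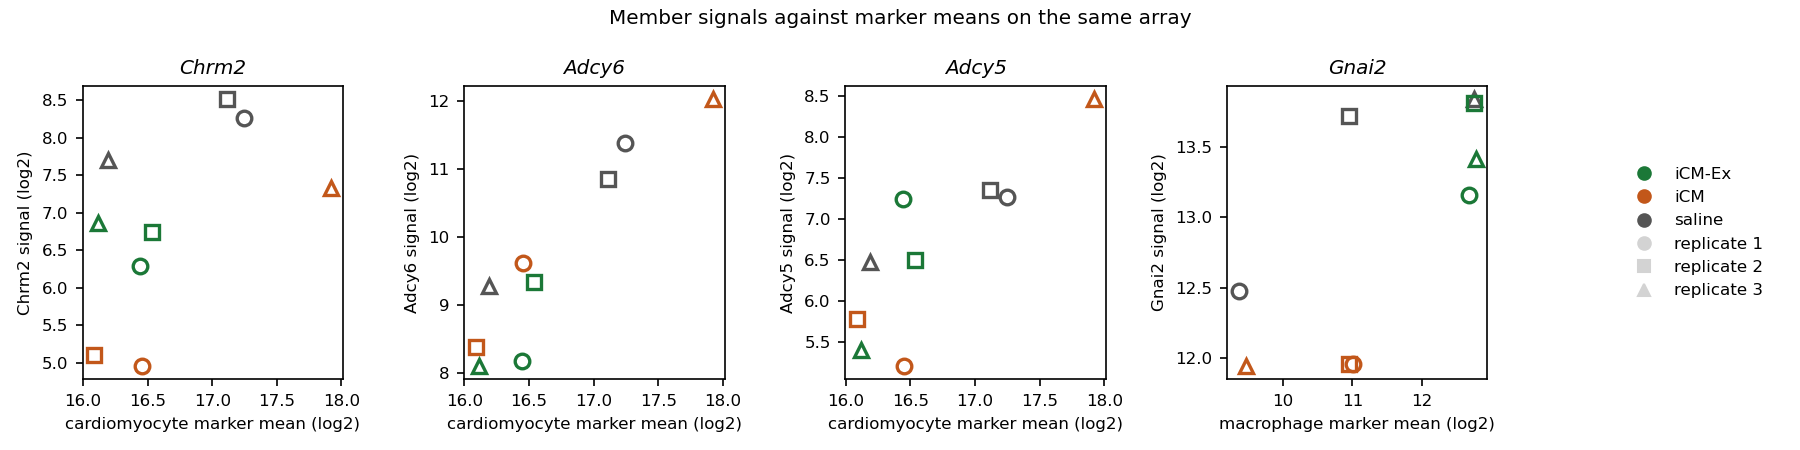
Log2 signal of Chrm2, Adcy6 and Adcy5 against the mean of 11 cardiomyocyte markers, and of Gnai2 against the mean of 5 macrophage markers, on the same array, with colours for groups and symbols for replicates. The array with the highest cardiomyocyte mean, at 17.92, is also the highest for Adcy6 and Adcy5, while its Chrm2 signal of 7.33 lies below all saline arrays.

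Grk5 encodes a kinase that phosphorylates active receptors and so uncouples them from their G proteins. Its signal was 11.91, 11.36 and 10.84 in iCM-Ex, 11.61, 10.24 and 11.41 in iCM, and 11.17, 11.31 and 11.84 in saline. The groups overlapped in each comparison. The difference from saline was −0.07 ± 0.42 in iCM-Ex and −0.35 ± 0.42 in iCM, with intervals of −1.0 to 0.87 and −1.29 to 0.58 (limma adjusted p = 0.961 and 0.682).

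As a set, the 7 members had a median difference of −0.18 in iCM-Ex and −0.49 in iCM, both against saline, and of −0.10 for iCM-Ex minus iCM. The medians over all genes were 0.04, 0.08 and −0.04. Before adjustment, p was under 0.05 for 2, 2 and 1 of the 7 members, beside 15.2%, 20.5% and 14.5% of all genes.

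The wider pathway was described with 11 lists that name 118 genes, of which 103 were measured. None of them passed the test for iCM-Ex against saline, 3 fell in iCM against saline (2.91%, beside 3.67% of all genes), and 1 rose and 1 fell for iCM-Ex against iCM (1.94%, beside 1.07%). Before adjustment, limma's p was under 0.05 for 17 of the 103 in iCM-Ex against saline (16.5%, beside 15.2% of all genes), 24 in iCM against saline (23.3%, beside 20.5%) and 18 for iCM-Ex against iCM (17.5%, beside 14.5%).

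In iCM hearts 2 of the 15 measured genes of protein kinase A, its anchors and its inhibitors were past the threshold, both lower. They are among the 3 of 103 past it and lower over all 11 lists, beside 2.33% of all genes. Of the 15 genes, 10 were lower and 5 higher, and 9 had an unadjusted limma p under 0.05, beside 20.5% of all genes. The 5 include Prkar2b, for a regulatory subunit (1.71 ± 0.64, limma adjusted p = 0.162), and Pkib, for an inhibitor (1.01 ± 0.37, limma adjusted p = 0.152). Prkar1a encodes a regulatory subunit that holds the kinase inactive until cyclic AMP binds. It was at 13.88, 13.51 and 14.27 in iCM, against 15.24, 15.64 and 15.65 in saline. The difference was −1.62 ± 0.30 (limma adjusted p = 0.0214). In iCM-Ex it was at 14.95, 14.94 and 14.39, also below all saline arrays. That difference from saline, −0.75 ± 0.30, did not pass the test (limma adjusted p = 0.274). Pkig encodes an inhibitor of the kinase. It was at 10.11, 10.32 and 10.81 in iCM, against 12.89, 12.70 and 12.77 in saline. The difference was −2.38 ± 0.51 (limma adjusted p = 0.0343). In iCM-Ex it was at 11.23, 12.97 and 13.54 and overlapped saline (difference −0.21 ± 0.51, limma adjusted p = 0.884). In neither Prkar1a nor Pkig did the iCM and saline arrays overlap, as in 24% of all genes, and naming genes by p favours such a gap. The saline arrays of Pkig lay close together.

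Plcb1, a phospholipase C of the Gq arm, also fell in iCM hearts and was the 1 of 7 measured genes of that arm past the threshold. It was at 7.73, 7.29 and 6.99 in iCM, against 8.58, 9.08 and 8.56 in saline, with a difference of −1.40 ± 0.29 (limma adjusted p = 0.0313). In iCM-Ex its signal was 7.34, 6.93 and 7.14, with a difference from saline of −1.60 ± 0.29 that did not pass the test (limma adjusted p = 0.0617). Before adjustment, limma's p was 0.000259 in iCM-Ex and 0.000709 in iCM, both against saline. Plcb1 differed by −0.20 ± 0.29 between iCM-Ex and iCM (limma adjusted p = 0.842), so its fall was not particular to iCM. Of 18 alternatives for iCM minus saline, Prkar1a stayed past the threshold in 10, Pkig in 9 and Plcb1 in 7, with the direction kept in all 18. With single arrays left out, the limma adjusted p went up to 0.0875 (Prkar1a), 0.106 (Pkig) and 0.117 (Plcb1). Without the 3 arrays that stood apart it was 0.256, 0.274 and 0.181, with differences of −1.24, −1.98 and −1.75.

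Between the injections, Gng5, a G protein gamma subunit, was 1 of 17 measured G protein genes and rose in iCM-Ex. Of all genes, 0.795% were past the threshold and higher in this contrast, and 0.272% lower. It was at 15.19, 16.22 and 17.05 in iCM-Ex, against 14.28, 13.69 and 13.44 in iCM, with a difference of 2.35 ± 0.46 (limma adjusted p = 0.0479). In saline it was at 14.65, 14.47 and 15.32, so the iCM-Ex arrays overlapped saline and the iCM arrays lay below it. Grk3, a receptor kinase that is recruited by G protein beta-gamma subunits, was lower in iCM-Ex, at 4.93, 5.09 and 5.49, than in iCM, at 6.67, 7.19 and 6.53. The difference was −1.63 ± 0.30 (limma adjusted p = 0.0386), and 1 of the iCM-Ex arrays read below its median negative control. Saline was at 5.74, 5.35 and 5.86, from which Grk3 differed by −0.48 ± 0.30 in iCM-Ex (limma adjusted p = 0.491, groups overlapping) and by 1.15 ± 0.30 in iCM (limma adjusted p = 0.0615, all iCM arrays higher).

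Neither call between the injections was stable. Gng5 stayed past the threshold in 5 of 18 alternatives and Grk3 in 7, with the direction kept in all 18. With single arrays left out, the limma adjusted p went up to 0.205 for Gng5 and 0.170 for Grk3, and without the 3 arrays that stood apart it was 0.311 and 0.336.

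**Figure D4:**
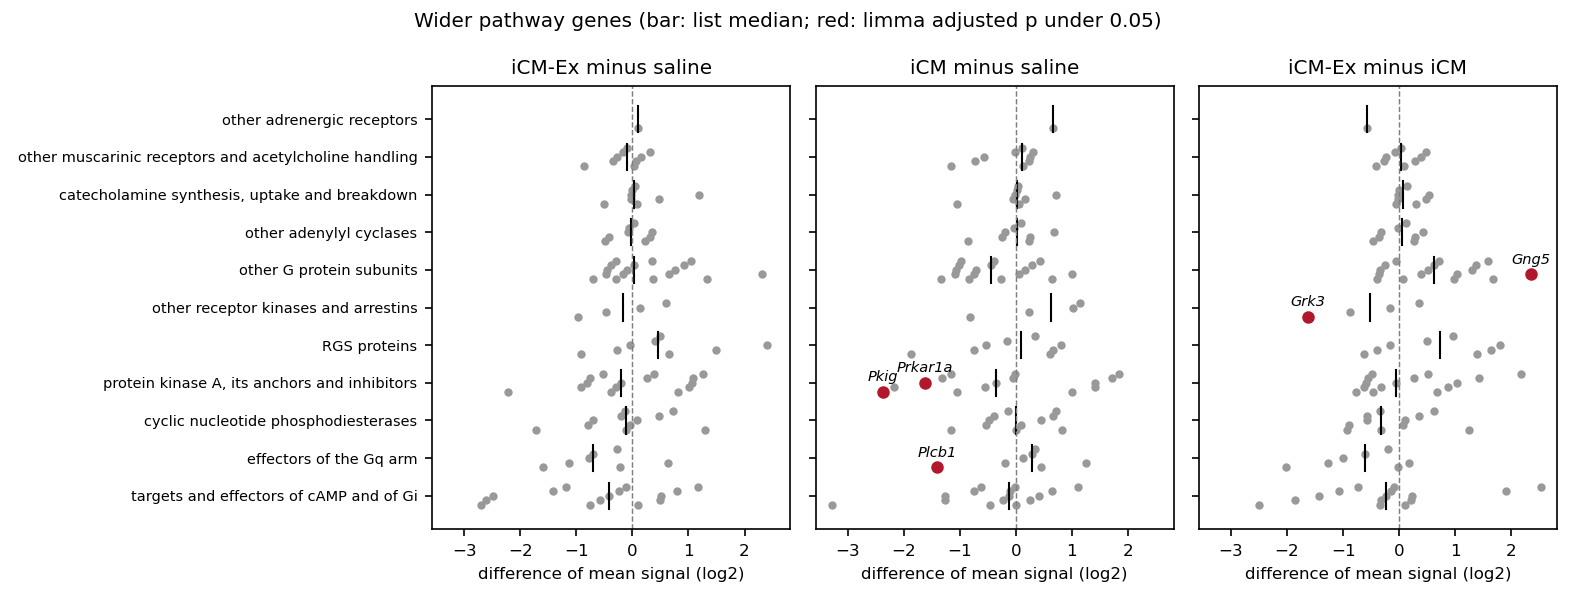
Difference of mean log2 signal (horizontal axis) of each of the 103 measured genes of the wider pathway, by list, in the 3 contrasts. Black bars are list medians, and red points are the 5 genes past the threshold: Prkar1a, Pkig and Plcb1 in iCM minus saline, and Gng5 and Grk3 in iCM-Ex minus iCM.

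In the other lists no gene passed the test in any contrast, and the gene with the smallest p is given for each. Popdc2, a cyclic AMP-binding membrane protein of muscle, was at 12.09, 11.57 and 15.51 in iCM, against 16.08, 16.75 and 16.19 in saline (difference −3.28 ± 0.83, limma adjusted p = 0.0571). Like Chrm2, it was far lower on iCM replicates 1 and 2 than on replicate 3. It passed the threshold in 4 of 18 alternatives, with a limma adjusted p of 0.00582 and a difference of −4.51 without iCM replicate 3, and was at −0.83 (limma adjusted p = 0.485) without the 3 arrays that stood apart. Rgs10, a regulator that speeds the switching-off of Gi proteins, was at 10.69, 11.33 and 11.50 in iCM-Ex, against 8.22, 8.97 and 9.14 in saline (difference 2.40 ± 0.48, limma adjusted p = 0.0714). Pde2a, a phosphodiesterase stimulated by cyclic GMP, was at 7.02, 7.89 and 6.19 in iCM-Ex, against 8.72, 8.75 and 8.82 in saline (difference −1.73 ± 0.40, limma adjusted p = 0.0966). These 3 genes had arrays that did not overlap between the groups compared. So did 24% of all genes for iCM and 21.7% for iCM-Ex against saline, and naming genes by p favours such a gap.

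Maob, a monoamine oxidase, differed by −1.04 ± 0.39 between iCM and saline (limma adjusted p = 0.167). Adcy10, the soluble adenylyl cyclase, and the alpha-2C receptor gene Adra2c differed by 0.67 ± 0.40 and 0.67 ± 0.27 between iCM and saline, and the vesicular acetylcholine transporter gene Slc18a3 by −0.41 ± 0.24 between iCM-Ex and iCM. The last 3 lay below the median negative control on all 9 arrays. Of the 6 other adrenergic receptor genes listed, Adra2c was the 1 analysed here. Among the other muscarinic receptors and acetylcholine genes, 0 of 9 passed the test in any contrast, and the list's median was −0.10 in iCM-Ex and 0.11 in iCM against saline. Of 6 measured markers of autonomic nerve and glia, 3 were higher and 3 lower in iCM than in saline, with a median difference of 0.08. The 1 past the threshold, beside 3.67% of all genes, was Uchl1 (difference −2.43, limma adjusted p = 0.0338), named after its value was seen. On each of the 9 arrays the mean of the 6 lay below the median negative control.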

How the data were processed

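Each Clariom S array gave 1 log2 signal per probe set, as deposited by the authors. The submitters' processing notes name Affymetrix Expression Console. Its version, the background correction, the normalisation and the genome build are not stated in any source used here, and the log2 scale was inferred from the range, 2.25 to 19.93. Control rows (6640) and rows without a symbol were left out, and the brightest row was kept per gene. One limma fit (limma 3.58.1, R 4.3.3) of all 9 arrays with a mean per group and empirical Bayes moderation gave the 3 contrasts. P-values are two-sided and adjusted by Benjamini-Hochberg over 19505 genes, with a threshold of 0.05. The number of arrays limits the precision. Recovery was simulated for iCM minus saline over 19505 genes. Changes of 1, 2, 3 and 4 (log2) were recovered in 2%, 64%, 82% and 98% of 50 genes each, with 9 false calls. The simulated noise was normal and independent, with 1 SD per gene in all groups, and the other genes were left unchanged. Unequal spread between groups and arrays that stand apart were not simulated, so these shares may not hold for the real arrays.

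The members and the lists were chosen with earlier results of these data known. All members were described. Of each wider list the genes past the threshold were named, or else the gene with the smallest p, and the 3 genes most like Chrm2 by Pearson r. Alternatives were quantile normalisation, a filter on dim genes, all rows, the 2 groups alone, a replicate block, each array left out, control separation (median positive minus median negative control) or cardiomyocyte markers as a covariate, a variance trend, and leaving out 3 arrays. They were also run, as an addition made after the data were seen, for the named genes of the wider lists. Same-numbered arrays did not deviate together (r of deviations from group means −0.257 to 0.068 over 9 pairs, against −0.156 to 0.249 over 18 others), so the numbers are not treated as pairs.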

Additional observations from a re-analysis of the deposited data

How the results depend on the processing

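With 3 arrays per group the spread limits what can be called. Of 375 member differences recomputed under 18 alternatives, 330 kept their direction and their side of the threshold, 30 turned their sign, 13 lost the call and 2 gained it. The 13 are all the fall of Chrm2 in iCM, and the 2 are Gnai2 without saline replicate 1. The cause was not tested.

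With the replicate number as a block, 338 genes passed the threshold for iCM minus saline, 0 for iCM-Ex minus saline and 18 for iCM-Ex minus iCM, with 0 members (Chrm2 adjusted p = 0.0801). In the same order of contrasts, control separation as a covariate left 33, 5 and 0 genes, omission of the 3 arrays that stood apart 6, 0 and 0, and the 2 groups alone 279, 1 and 13. Control separation was 2.47 to 3.21 on iCM, 3.26 to 3.56 on saline and 3.63 to 4.01 on iCM-Ex arrays. The groups did not overlap in it, so it cannot be told apart from the injection. The cardiomyocyte covariate left 1 gene for iCM-Ex minus saline and 75 for iCM-Ex minus iCM, and the variance trend 12 and 118. Genes above the median gave 352 for iCM-Ex minus iCM. For iCM minus saline 0 members passed under quantile normalisation, control separation, the 2 groups alone or without the 3 arrays. Leaving out single arrays gave 126 to 803, 0 to 163 and 0 to 401 genes, and 0 to 1 members for iCM minus saline and for iCM-Ex minus iCM.

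Signs turned as follows. Control separation gave Adcy6 0.64 and Grk5 0.35 (iCM minus saline), Adra1b −0.027 and Gnai2 −0.13 (iCM-Ex minus saline) and Grk5 −0.89 (iCM-Ex minus iCM). Without the 3 arrays Adcy5 was 1.43 and Adcy6 1.52 (iCM minus saline), Grk5 0.20 (iCM-Ex minus saline) and Chrm2 −0.81 (iCM-Ex minus iCM). Quantile normalisation gave Adra1b −0.16 and Gnai2 −0.0025 (iCM-Ex minus saline). The cardiomyocyte covariate gave Adcy5 0.089, Gnas 0.090 and Grk5 0.033 (iCM-Ex minus saline) and Adcy5 0.60 (iCM-Ex minus iCM). Leaving out single arrays gave ranges of −1.54 to 0.087 for Adcy5, −1.50 to 0.32 for Adcy6, −0.0033 to 0.61 for Gnas and −0.62 to 0.071 for Grk5 (iCM minus saline). For iCM-Ex minus saline they were −0.28 to 0.49 for Adra1b, −0.31 to 0.37 for Gnai2, −0.53 to 0.048 for Gnas and −0.34 to 0.20 for Grk5, and for iCM-Ex minus iCM −0.74 to 0.89 for Adcy5 and −0.14 to 0.55 for Grk5.

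For the called genes of the wider lists, the limma adjusted p with the replicate block was 0.0568 (Prkar1a), 0.0496 (Pkig), 0.0649 (Plcb1), 0.0889 (Gng5) and 0.0858 (Grk3). With control separation it was 0.241, 0.284, 0.230, 0.776 and 0.792 in the same order. The variance trend gave 0.0517, 0.0396, 0.0597, 0.0627 and 0.0526, and the 2 groups alone 0.0562, 0.0249, 0.0793, 0.0821 and 0.0650. Gng5 also lost the call under quantile normalisation (0.0767) and the cardiomyocyte covariate (0.0744). Popdc2 gained one among genes above the median (0.0359), with the cardiomyocyte covariate (0.0138) and with the variance trend (0.0493). These alternatives were chosen for the wider lists after the data were seen.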
